A study of Mus musculus with 18 samples.

Results

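This section describes the microRNAs (miRNAs) of mouse liver 48 h after a single high dose of monocrotaline, set against vehicle controls. All probes named for a mouse miRNA were taken from the 3 arrays of the 330 mg/kg group (MCT 330) and the 3 control arrays, 6 of the 18 arrays of the series. The array carried 1178 probes, of which 1122 carry a mouse miRNA name and 56 a viral one. Of the mouse probes, 490 were tested, because their foreground minus background intensity was 30 or more on every array of at least 1 group, and 632 were not. Of the 490, 448 met that limit on all control arrays and 418 on all MCT 330 arrays. In 18 of them the MCT 330 arrays met it and not all control arrays did, so a difference upward was built into the choice, and 48 stood the other way round.

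The animals were male C57BL/6 mice of 6 weeks, 24 in all, with 8 mice in each group. They were fasted for 12 h and given monocrotaline by mouth, into the stomach, at 270 mg/kg (MCT 270) or 330 mg/kg. The control animals received saline. Total liver RNA of 3 mice per group was labelled with Hy3 and hybridised to single-colour miRNA arrays, and 9 messenger RNA (mRNA) arrays were labelled as the same mice. The MCT 270 arrays entered the fit to estimate the spread between arrays. The labels name separate mice, but whether the miRNA arrays came from separate animals could not be checked, so a p-value here measures the spread between these arrays.

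Monocrotaline is a pyrrolizidine alkaloid of Crotalaria plants. Cytochrome P450 enzymes of the hepatocyte turn it into a reactive pyrrole that is known for damaging the sinusoidal endothelium of the liver, with congestion, haemorrhage and loss of hepatocytes. A miRNA is a short RNA that guides Argonaute proteins to messenger RNAs, chiefly through its seed, bases 2 to 8 from the 5′ end, and lowers the output of those messages. Each precursor hairpin can give a mature strand from either arm, named -5p or -3p, and each arm had its own probe.

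The miRNAs that fell furthest at 330 mg/kg are printed here so that their seeds can be compared. The sequences are RefSeq mature sequences (GRCm38.p6), 5′ to 3′, with the seed in capitals. Of the 490 tested probes, 395 had a RefSeq mature sequence, among them all 26 that passed the test. The first pair shares 1 seed, while miR-344f-5p and miR-344i of the same family have seeds of their own.
miR-344b-5p: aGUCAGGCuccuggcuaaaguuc
miR-344-5p: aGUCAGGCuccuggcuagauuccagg
miR-344f-5p: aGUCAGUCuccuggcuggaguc
miR-344i: aAGUCAGGcuccuggcugga
The others had seeds that no other called miRNA shared.
miR-188-3p: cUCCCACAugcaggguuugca
miR-743a-3p: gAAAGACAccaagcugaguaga
miR-878-3p: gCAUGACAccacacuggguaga
miR-489-3p: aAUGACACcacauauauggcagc
miR-463-3p: uGAUAGACaccauauaagguag
miR-547-5p: cACUUGAGgauguaccaccca
miR-493-5p: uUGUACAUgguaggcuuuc
miR-138-1-3p: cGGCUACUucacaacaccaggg
miR-3473d: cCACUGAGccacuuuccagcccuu
The only miRNA called higher was miR-592-3p.
miR-592-3p: uCAUCACGuggugacgcaacau

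Levels below are normalised log2 intensities, and differences are log2 fold changes, MCT 330 over control, with the standard error (SE) of the limma fit over 9 arrays. Per array, 435 to 510 mouse probes reached 30 over background, and 3 arrays per group set the precision. Probe miR-3963 was saturated on 8 arrays and miR-5100 on 1, so neither gave a measured difference. The defining hepatocyte probe miR-122-5p was among the 10 with the highest control signal, at 13.36, 12.96 and 12.96 in the controls. The MCT 330 arrays were not alike. Measured as the SD of the log2 difference from the control mean over the tested probes, replicate 1 stood at 0.942, replicate 2 at 0.678 and replicate 3 at 0.499. Each control array, set against the other 2, gave 0.291 to 0.456. The array labelled MCT 330 replicate 3 therefore lay close to the range of the controls. It correlated with control replicates 1, 2 and 3 at r = 0.919, 0.958 and 0.961. With MCT 330 replicates 1 and 2 it correlated at r = 0.886 and 0.958 (490 probes on arrays that share a normalisation). On the mRNA arrays labelled as the same mice, the MCT 330 replicates differed by SDs of 0.0918 to 0.190. Control replicate 1 differed from the other controls by 0.439 and 0.445. In every group replicates 2 and 3 were the closest pair, at 0.076 in the controls, 0.0621 in MCT 270 and 0.0918 in MCT 330. Results that rest on MCT 330 replicate 3 are given with and without it. That array was singled out for lying nearest to the controls, so leaving it out tends to enlarge differences. Values without it are a description and are not read as support.

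At 330 mg/kg a small group of miRNAs fell and 1 rose beyond the spread between arrays. By limma with Benjamini-Hochberg adjustment over the 490 tested probes, 26 (5.31%) passed an adjusted p of 0.05, of which 25 (5.1%) fell and 1 (0.204%) rose. Of the 25, 21 had a log2 fold change of -1 or less. For miR-3060-5p and miR-683 among them, only a bound under 2-fold can be given, as described below. The changes of the 25 ran from -0.79 to -3.23 with a median of -1.48. The median of all tested probes was 0.05. On all 3 arrays, 85 probes (17.3%) lay below every control and 46 (9.39%) above every control, and all 26 called probes were among them. At an unadjusted p of 0.05, 78 were lower and 31 higher. The count depended on single arrays. It was 13 without control replicate 1, 12 without control replicate 2, 16 without MCT 330 replicate 1, and 13 without MCT 330 replicate 2, all of them among the 26. Without MCT 330 replicate 3 it was 76, with 53 lower and 23 higher, and these included all 26.

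**Figure D1:**
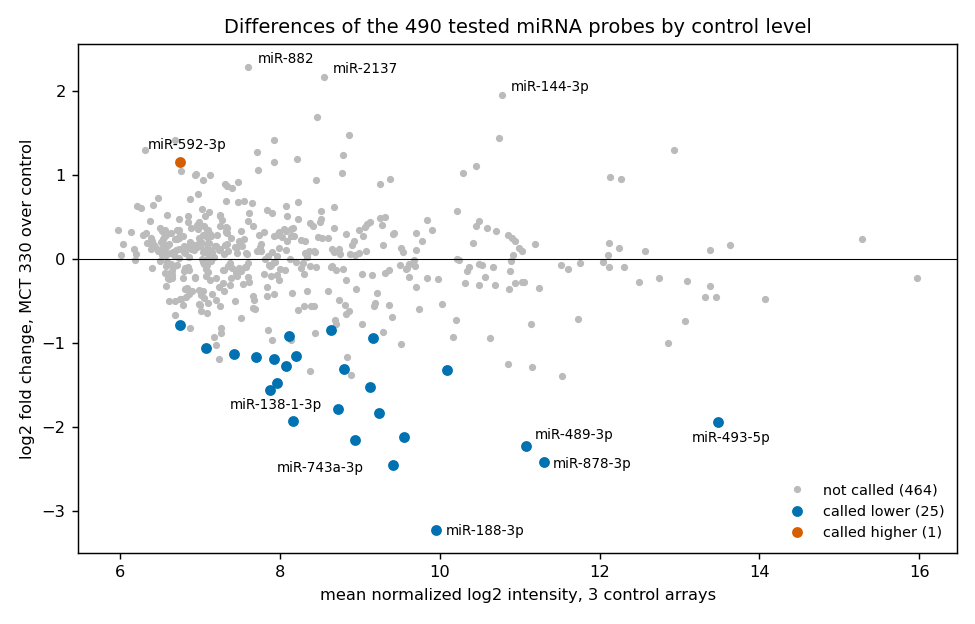
Log2 fold change of MCT 330 over control (vertical axis) against the mean normalised log2 intensity of the 3 control arrays (horizontal axis) for the 490 tested mouse probes, 1 point per probe. The 25 called lower (blue) reach -3.23 at miR-188-3p, and the 1 called higher (orange) is miR-592-3p; miR-882, miR-2137 and miR-144-3p lie highest and were not called (grey).

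The largest fall was that of miR-188-3p, encoded on the X chromosome. Its levels were 11.12, 9.90 and 8.86 in the controls and 6.45, 6.79 and 6.96 on the MCT 330 arrays. The controls spread over more than 2 log2 units, and even the lowest stood well above the highest treated array. The change was -3.23 ± 0.46 (SE; limma adjusted p = 0.00408), a 9.35-fold fall in this fit. With other processing or single arrays left out it ran from -2.65 to -4.31, so the size of the fall depends on these choices.

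A group of 3 miRNAs from a single X-chromosome cluster, known for its expression in testis, fell together. For miR-878-3p the controls read 11.53, 11.44 and 10.96 and the MCT 330 arrays 8.68, 9.08 and 8.88. For miR-743a-3p the controls read 9.73, 9.63 and 8.87 and the MCT 330 arrays 6.74, 7.06 and 7.08. For miR-463-3p the controls read 9.52, 9.05 and 8.25 and the MCT 330 arrays 6.43, 6.94 and 6.97. In each of them the groups were separated by more than 1 log2 unit, and MCT 330 replicate 3 was close to replicate 2. The changes were -2.43 ± 0.22 for miR-878-3p (limma adjusted p = 0.000416), -2.45 ± 0.25 for miR-743a-3p (0.000572) and -2.16 ± 0.33 for miR-463-3p (0.00408). The cluster, taken as miRNA genes within 10 kb of a neighbour in RefSeq, holds 19 genes with 12 tested probes. Of those 12, 3 were called lower and 1 more lay below all controls. Over all tested probes, 5.1% were called lower and 17.3% lay below all controls. The median of the 12 was -0.19, so most of its members did not move with the 3.

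Further falls came from other loci. The chromosome 6 miRNA miR-489-3p, whose gene lies in an intron of the calcitonin receptor gene, read 11.38, 11.28 and 10.56 in the controls and 8.24, 9.00 and 9.29 on the MCT 330 arrays. The X-chromosome miRNA miR-547-5p read 9.999, 9.66 and 8.99 against 6.96, 7.55 and 7.77. The levels of both were lowest in MCT 330 replicate 1, and the groups did not overlap. The changes were -2.23 ± 0.33 for miR-489-3p (limma adjusted p = 0.00408) and -2.12 ± 0.29 for miR-547-5p (0.00365). The passenger arm of a neuronal miRNA, miR-138-1-3p, read 9.02, 8.63 and 8.54 against 6.75, 6.88 and 7.20. Both of its groups were tight, and the change of -1.79 ± 0.22 had a limma adjusted p of 0.00167. The chromosome 8 miRNA miR-3473d read 8.26, 7.86 and 7.52 against 6.24, 6.21 and 6.51. Its signal did not reach 30 over background on any MCT 330 array, so the fall is given as a bound, at least 2.64-fold (limma adjusted p = 0.00408). It is one of 5 called miRNAs, with miR-344i, miR-3060-5p, miR-683 and miR-3966, that had no MCT 330 array at 30 over background and entered the test through the controls, so that a difference downward was built into their choice.

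**Figure D2:**
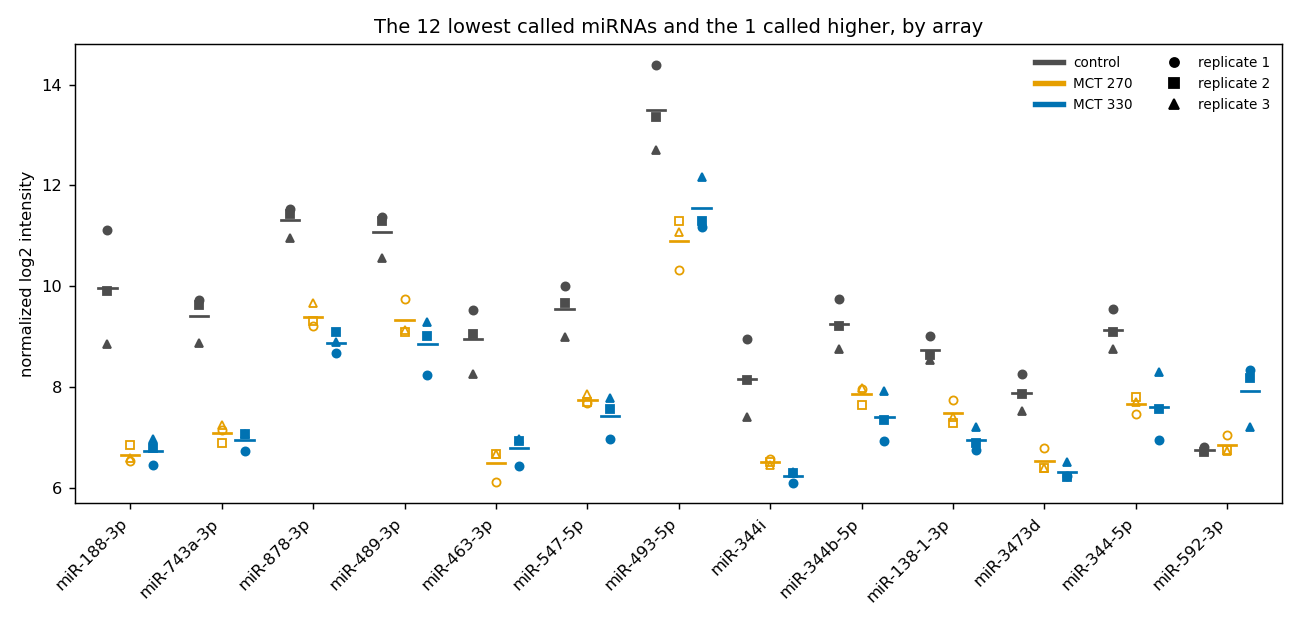
Normalised log2 intensity (vertical axis) of the 12 called miRNAs with the lowest log2 fold change and of miR-592-3p on the 9 arrays, with 1 symbol per replicate, a colour per group and a bar at each group mean. For the 12, all MCT 330 values lie below all control values, as at miR-188-3p (8.86 the lowest control, 6.96 the highest MCT 330 array), while miR-592-3p lies above.

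The chromosome 7 family of miR-344 gave 4 of the 25 falls, where 5.1% of all tested probes were called lower. The family did not fall as a whole. From another chromosome 7 cluster of miR-344 genes, 3 probes were tested, miR-344d-3p, miR-344e-3p and miR-344h-3p. None of them was called or lay beyond all controls, and their changes ran from -0.23 to 0.47. These 3 are -3p arms, whereas miR-344b-5p, miR-344-5p and miR-344f-5p are -5p arms. A difference by arm and a difference by cluster therefore cannot be told apart here. For miR-344b-5p the controls read 9.75, 9.21 and 8.76 and the MCT 330 arrays 6.93, 7.34 and 7.93. For miR-344-5p the controls read 9.55, 9.08 and 8.75 and the MCT 330 arrays 6.95, 7.56 and 8.29. Both had their least lowered value in MCT 330 replicate 3, which remained below every control. The changes were -1.84 ± 0.31 for miR-344b-5p (limma adjusted p = 0.00719) and -1.53 ± 0.33 for miR-344-5p (0.0256). The latter missed the threshold without control replicate 1 (-1.31, limma adjusted p = 0.127), control replicate 2 (-1.55, 0.0998), MCT 330 replicate 1 (-1.20, 0.0832) or MCT 330 replicate 2 (-1.51, 0.107). For miR-344i, at 8.95, 8.15 and 7.40 in the controls, no MCT 330 array reached 30 over background (6.10, 6.29 and 6.31), which gave a fall of at least 3.21-fold (limma adjusted p = 0.00719). The fourth, miR-344f-5p, changed by -1.48 ± 0.27 (limma adjusted p = 0.0106; -1.45 and 0.0644 without control replicate 2). Signal of one family member on the probe of another cannot be told apart here.

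The imprinted Dlk1-Dio3 locus of chromosome 12, a long array of miRNA genes expressed from the maternal allele, gave 3 of the 25 falls. For miR-493-5p the controls read 14.39, 13.36 and 12.70 and the MCT 330 arrays 11.18, 11.28 and 12.17. Replicate 3 of MCT 330 lay nearer to the lowest control than to the other treated arrays. The change was -1.94 ± 0.44 (limma adjusted p = 0.0337), and it missed the threshold without control replicate 1 (-1.49, 0.12), control replicate 2 (-2.001, 0.105), MCT 330 replicate 1 (-1.76, 0.148), MCT 330 replicate 2 (-1.81, 0.142) or MCT 270 replicate 3 (-1.94, 0.0501). For miR-382-3p the controls read 8.01, 7.75 and 7.36 and the MCT 330 arrays 6.41, 6.36 and 6.84, a change of -1.17 ± 0.23 (limma adjusted p = 0.0169). For miR-434-3p the controls read 8.44, 8.38 and 7.80 and the MCT 330 arrays 7.02, 6.94 and 7.19, a change of -1.16 ± 0.23 (0.0169). Neither pair of groups overlapped, yet each call was lost without control replicate 1 or 2 or without MCT 330 replicate 1 or 2, with limma adjusted p-values of 0.0659 to 0.0981 for miR-382-3p and 0.06 to 0.0985 for miR-434-3p. Of 92 probes on the list made for the locus, 34 were tested. The list was made by name and leaves out some tested probes of the locus. Among those left out, miR-770-5p, miR-1193-3p, miR-3072-3p and miR-654-3p overlapped their controls, so the shares below are those of the list. Of those, 3 were called lower, against 5.1% of all tested probes, and none higher. Below all controls lay 13 (38.2%), against 17.3% of all tested probes. At an unadjusted limma p of 0.05, 11 of the 34 (32.4%) were lower, against 15.9% of all tested probes, and 1 was higher. Without MCT 330 replicate 3, miR-541-3p was called higher (1.54, limma adjusted p = 0.0172). The same fit added miR-376b-3p, miR-487b-3p, miR-667-3p and miR-370-5p to those called lower. The median of the 34 was -0.10 against 0.05 for all tested probes.

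The other 10 called lower were miR-3066-5p, miR-219b-5p, miR-1198-5p, miR-1894-5p, miR-3060-5p, miR-683, miR-5624-5p, miR-1964-5p, miR-5622-5p and miR-3966. Their changes ran from -0.79 at miR-3966 to -1.33 at miR-3066-5p. The MCT 330 arrays of miR-3060-5p, miR-683 and miR-3966 were all under 30 over background, which gave falls of at least 1.93-fold, 1.51-fold and 1.21-fold. The weakest calls were miR-3066-5p, whose levels were 10.41, 10.06 and 9.80 against 8.18, 8.56 and 9.55, and miR-1198-5p, at 8.60, 8.07 and 7.57 against 6.29, 6.74 and 7.37. In both, MCT 330 replicate 3 lay close under the lowest control. Their limma adjusted p-values were 0.0492 and 0.0487, and each was 0.152 to 0.19 without control replicate 1 or 2 or without MCT 330 replicate 1 or 2, and 0.0701 to 0.0771 without MCT 270 replicate 2 or 3. Without control replicate 3 miR-3066-5p also missed (0.0524). The calls of miR-1964-5p, miR-683 and miR-3966 were lost without control replicate 1 or 2 or MCT 330 replicate 2, with limma adjusted p-values of 0.0639 to 0.102. Those of miR-1894-5p, miR-5624-5p and miR-5622-5p were lost without any of these arrays, without MCT 330 replicate 1 or without MCT 270 replicate 3 (limma adjusted p of 0.0501 to 0.153), and that of miR-5622-5p also without control replicate 3 (0.0524). The calls of miR-219b-5p and miR-3060-5p held with each of the 9 arrays left out, and both were lost when replicates 2 and 3 of each group were averaged (limma adjusted p = 0.0657 and 0.0766).

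The single call upward was miR-592-3p, with levels of 6.82, 6.70 and 6.75 in the controls and 8.34, 8.18 and 7.22 on the MCT 330 arrays. All treated arrays lay above the controls, replicate 3 by the least. The change was 1.16 ± 0.28 (limma adjusted p = 0.0443). It missed the threshold without any 1 of the 3 control arrays (limma adjusted p of 0.0758 to 0.152), without MCT 330 replicate 1 (0.153) or 2 (0.188), and without MCT 270 replicate 2 (0.0699) or 3 (0.0736). The call was lost in 14 of 21 other settings in all. With other choices of processing its limma adjusted p was 0.0562 with median centring, 0.0616 with cyclic loess, 0.0791 with no filter, 0.0602 with a signal of 30 asked on all 9 arrays, 0.0704 in the 6 arrays alone, 0.0843 with replicates 2 and 3 averaged and 0.0517 with the replicate number as a block. At 1.50 ± 0.16 it was larger without MCT 330 replicate 3.

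The 25 lowered miRNAs also moved together among the controls. Control replicate 1 was the highest control for 24 of the 25 and control replicate 3 the lowest for 24 of the 25, whereas over all 490 tested probes these counts were 167 and 179. Relative to the control mean, the median of the 25 was 0.32 on control replicate 1, -0.01 on control replicate 2 and -0.38 on control replicate 3. On the MCT 330 arrays it was -1.80, -1.53 and -1.05, with medians of -0.08, 0.04 and 0.09 over all tested probes. The medians on the MCT 330 arrays follow from the choice of the 25 and are a description. What set the order of the controls was not tested. On the MCT 270 arrays, which share the controls, the median was -1.15, -1.32 and -1.26, and 24 of the 25 lay below every control on all 3 arrays, as did 22.9% of all tested probes. The 25 were chosen on these same controls, so nothing is read from that count.

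**Figure D3:**
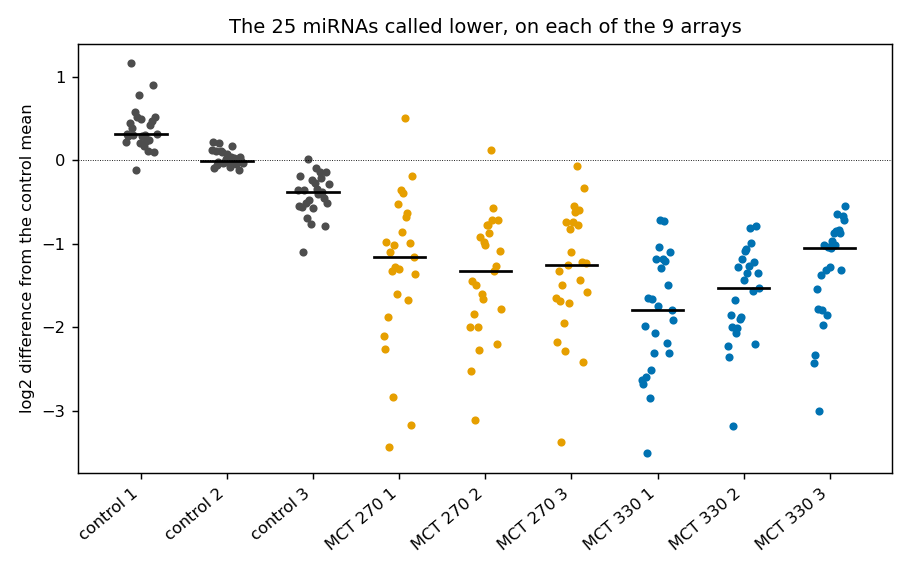
Log2 difference from the mean of the 3 control arrays (vertical axis) for the 25 miRNAs called lower on each of the 9 arrays (horizontal axis), with 1 point per miRNA and a bar at the median. Medians run from 0.32 on control replicate 1 to -0.38 on control replicate 3, and from -1.80 on MCT 330 replicate 1 to -1.05 on MCT 330 replicate 3; these miRNAs were chosen for the difference between control and MCT 330.

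Sequences of the lowered miRNAs were compared for words of 6 bases anywhere in the mature strand. Of 969 such words held by 3 or more tested miRNAs, 7 were held by 4 or more of the 25. The words below were chosen after these values were seen, so they are described and not tested. The word ACACCA was held by 6 of 394 tested miRNA names with a sequence (1.52%) and by 5 of the 25 called lower. All 6 lay below every control on all MCT 330 arrays, as did 17.3% of all tested probes, with a median change of -2.20. They are printed with the word in capitals.
miR-743a-3p: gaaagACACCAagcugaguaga
miR-878-3p: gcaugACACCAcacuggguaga
miR-489-3p: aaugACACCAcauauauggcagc
miR-463-3p: ugauagACACCAuauaagguag
miR-138-1-3p: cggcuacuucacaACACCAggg
miR-138-2-3p: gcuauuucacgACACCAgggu
The sixth, miR-138-2-3p, read 11.76, 11.76 and 11.67 in the controls and 10.62, 10.96 and 11.44 on the MCT 330 arrays. Its change of -0.72 ± 0.24 did not pass (limma adjusted p = 0.106) and did without MCT 330 replicate 3 (-0.94, 0.0237). Leaving out MCT 330 replicate 1 or 2 instead gave limma adjusted p-values of 0.279 and 0.274. The members come from the X cluster, from chromosome 6 and from the paralogous miR-138 genes. The word begins at base 5 to 7 in the first 4 and at base 12 or 14 in the miR-138 arms, so it is no shared seed. Among 1674 RefSeq mouse mature sequences, 0.538% hold it.

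The 6-base word CCUGGC was held by 9 of the 394 names (2.28%), with a median change of -1.28, and by 5 of the 25 called lower. Of its other holders, miR-1981-3p at -0.30, miR-221-5p at -0.02 and miR-2861 at 0.18 lack the U that follows in the rest. The longer word with that base, CCUGGCU, was held by 6 of the 394 names (1.52%) and by the same 5, with a median change of -1.51.
miR-344i: aagucaggcuCCUGGCUgga
miR-344b-5p: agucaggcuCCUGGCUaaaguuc
miR-344-5p: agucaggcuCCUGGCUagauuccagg
miR-344f-5p: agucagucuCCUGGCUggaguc
miR-1198-5p: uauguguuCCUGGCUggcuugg
miR-207: gcuucuCCUGGCUcuccucccuc
Of these, 4 belong to the miR-344 family, while miR-1198-5p is encoded on the X chromosome and fell by 1.28 on the log2 scale. The sixth holder, miR-207, read 11.31, 10.87 and 10.66 against 9.999, 10.58 and 11.38 on the MCT 330 arrays. Its groups overlapped, and the change was -0.30 ± 0.34 (limma adjusted p = 0.693). In all, 10 of the 25 called lower held ACACCA or CCUGGCU and 15 held neither. The median GC content was 52.4% for the 25 and 47.8% for the 395 tested probes with a sequence, and GC content and log2 fold change had a Pearson r of -0.02 across those 395 probes, which share the same arrays. Match to a word was counted on the mature strand and says nothing of what binds it.

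**Figure D4:**
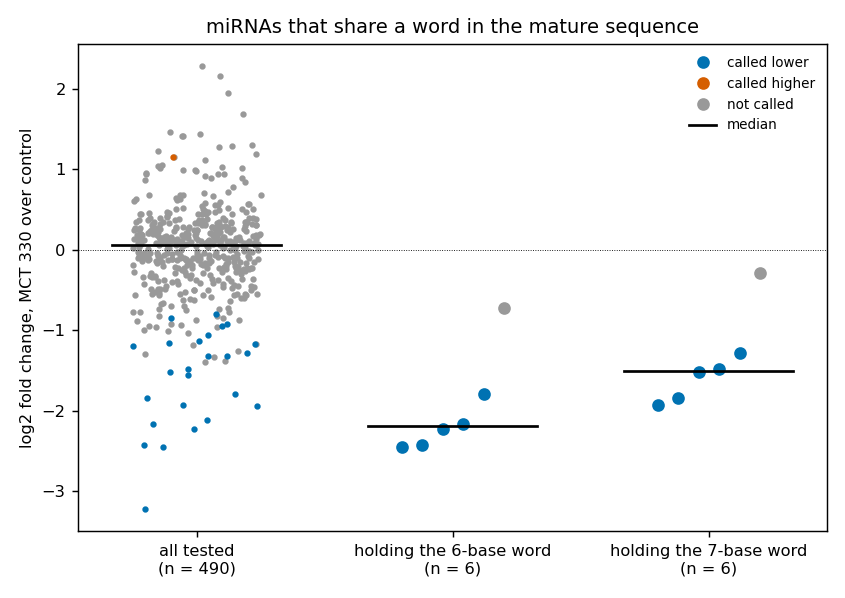
Log2 fold change of MCT 330 over control (vertical axis) for all 490 tested probes and for the miRNAs that hold the 6-base or the 7-base word in their mature sequence, 1 point per probe, with a bar at each median. The medians are 0.05, -2.20 and -1.51; the words were chosen after the values were seen, and the grey holders are miR-138-2-3p and miR-207.

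The tested miRNAs of red blood cells lay above every control at 330 mg/kg, and none passed the test in the main fit over all arrays. The erythroid list (miR-144, miR-451a and miR-486) had 6 probes, 4 of them tested, and those 4 lay above every control, as did 9.39% of all tested probes, with a median change of 1.29. Of the 4, miR-144-5p entered the test only through its MCT 330 arrays, since 1 of the 3 control arrays reached 30 over background, so a difference upward was built into its choice. The median of the other 3 was 1.30. For miR-144-5p the controls read 6.21, 6.21 and 6.53 and the MCT 330 arrays 7.81, 8.10 and 6.90. For miR-451a, processed from the same chromosome 11 transcript as miR-144, the controls read 13.17, 12.26 and 13.36 and the MCT 330 arrays 14.39, 14.39 and 13.91. For miR-144-3p the controls read 10.87, 10.25 and 11.21 and the MCT 330 arrays 13.51, 13.36 and 11.31. Replicates 1 and 2 of MCT 330 stood high in all 3. Replicate 3 lay just above the highest control for miR-144-3p and a little further above it for miR-144-5p, while for miR-451a it was nearer to the other treated arrays than to the highest control. The changes were 1.29 ± 0.33 for miR-144-5p (limma adjusted p = 0.0543), 1.30 ± 0.35 for miR-451a (0.0597) and 1.95 ± 0.54 for miR-144-3p (0.0673). The probe that names miR-3107-5p and miR-486-5p together changed by 0.93 ± 0.28 (limma adjusted p = 0.0837). Without MCT 330 replicate 3 all 4 passed, at 1.64, 1.46, 2.66 and 1.13, with limma adjusted p-values of 0.00947, 0.0496, 0.00544 and 0.044. Without MCT 330 replicate 1 or 2 instead, none passed, with limma adjusted p-values of 0.153 to 0.257. Some settings that kept every MCT 330 array did give calls. The limma adjusted p of miR-144-5p was 0.0391 with median centring, 0.0469 with cyclic loess and 0.0395 with the authors' normalized ratio. That of miR-144-3p was 0.0391 with median centring and 0.032 with replicates 2 and 3 averaged. In the 6 arrays alone miR-451a passed (0.0499) and miR-144-5p missed (0.0515). The miR-486-5p probe passed in none of these. In whole liver a change in the number of cells of a type and a change in the RNA of each cell cannot be told apart.

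The myeloid list (miR-223, miR-142 and miR-511) had 4 of 6 probes tested, with a median of 0.98 and none called. For miR-223-3p, the abundant miRNA of neutrophils, the controls read 8.70, 9.09 and 8.57 and the MCT 330 arrays 10.89, 10.17 and 8.99. For miR-142-5p, found in leukocytes of all lineages, the controls read 8.58, 9.02 and 8.74 and the MCT 330 arrays 10.21, 10.21 and 9.00. In both, replicates 1 and 2 were raised by over 1 log2 unit above every control, and replicate 3 lay inside the control range. The changes were 1.23 ± 0.40 for miR-223-3p (limma adjusted p = 0.099) and 1.03 ± 0.32 for miR-142-5p (0.0871). Without MCT 330 replicate 3 they were 1.74 (limma adjusted p = 0.00623) and 1.43 (0.00544). Neither passed without MCT 330 replicate 1 or 2 instead, with limma adjusted p-values of 0.268 to 0.274. The macrophage miRNA miR-511-3p changed by -0.20 ± 0.26 (limma adjusted p = 0.734). Of 6 lymphocyte probes 3 were tested, with a median of 0.11 and none called. Among them miR-150-5p, at 7.40, 7.34 and 7.25 against 7.84, 7.69 and 7.58, lay above all controls by a small margin, with a change of 0.37 ± 0.21 (limma adjusted p = 0.381). The groups overlapped for miR-342-3p, which changed by -0.15 ± 0.21 (0.741), and for miR-155-3p.

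**Figure D5:**
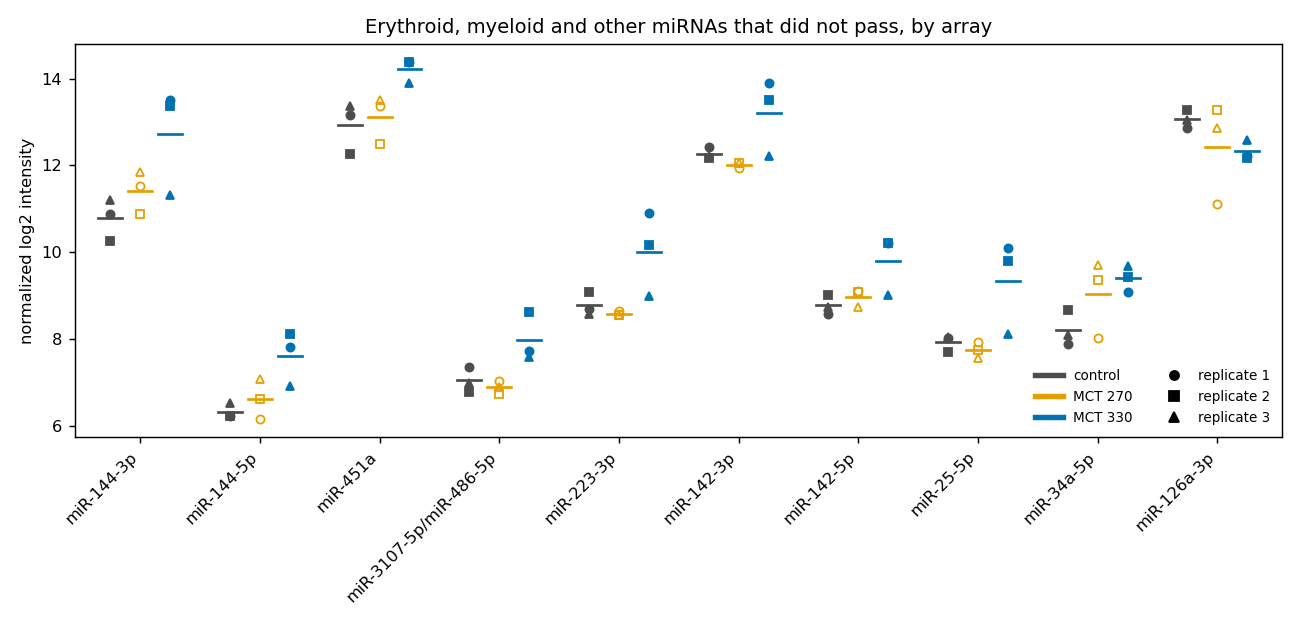
Normalised log2 intensity (vertical axis) on the 9 arrays of 4 erythroid, 3 myeloid and 3 other probes that were not called, with 1 symbol per replicate, a colour per group and a bar at each group mean. For miR-144-3p, MCT 330 replicates 1 and 2 stand at 13.51 and 13.36 and replicate 3 at 11.31, next to the highest control at 11.21. Replicate 3 is the highest MCT 330 array for miR-34a-5p and for miR-126a-3p.

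The place of replicate 3 among the treated arrays was counted over all tested probes. Of 46 probes above every control, replicate 3 was the treated array nearest to the controls in 22, and of 85 below every control in 64. Of 21 probes with a log2 fold change of 1 or more, replicate 3 was the lowest treated array in 19 and did not exceed the highest control in 12. Of 30 probes with a log2 fold change of -1 or less, replicate 3 was the highest treated array in 27 but reached the lowest control in only 3. These counts hold only for differences of that size.

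Of the miRNAs induced by p53 in DNA damage, 10 of 15 probes were tested and none was called. For miR-34a-5p, the best known of them, the controls read 7.88, 8.67 and 8.08 and the MCT 330 arrays 9.08, 9.42 and 9.69. All treated arrays, replicate 3 included, exceeded every control. The change was 1.19 ± 0.41 (limma adjusted p = 0.11), and in the fit of the 6 arrays alone, without the MCT 270 group, the adjusted p was 0.0441. Without MCT 270 replicate 1, which read 8.03 beside 9.35 and 9.70, it was 0.0255. With any other array left out, the limma adjusted p was 0.113 to 0.344. Its relative miR-34b-3p changed by -0.56 ± 0.28 (limma adjusted p = 0.3), and miR-215-3p of the same list by -0.83 ± 0.22 (0.0568). Both lay below every control. Of the 10 tested, 1 (10%) lay above all controls, against 9.39% of all tested probes, and 2 (20%) below, against 17.3%. The median of the 10 was 0.13.

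The miRNAs that mark hepatocytes gave no call. Of 31 probes 23 were tested, 4 (17.4%) lay below all controls, against 17.3% of all tested probes, none lay above, and the median was -0.07. The main hepatocyte miRNA, miR-122-5p, read 13.36, 12.96 and 12.96 in the controls and 12.50, 12.70 and 13.28 on the MCT 330 arrays. Its groups overlapped, with a change of -0.27 ± 0.28 (limma adjusted p = 0.658). The abundant miR-101a-3p read 13.28, 13.51 and 13.17 against 12.59, 12.96 and 13.06, lower on every treated array by a small margin, with a change of -0.45 ± 0.23 (0.3). A further probe, which names miR-101a-3p and miR-101c together, overlapped its controls and changed by 0.28 ± 0.34 (limma adjusted p = 0.705). The lowest members were the minor arms miR-148a-5p, at 7.74, 7.19 and 6.88 against 6.29, 6.49 and 6.55, and miR-215-3p, under 30 over background on every MCT 330 array. Their limma adjusted p-values were 0.0659 and 0.0568, and both fell to 0.0252 without control replicate 3. Both rose to between 0.149 and 0.196 without control replicate 1 or 2 or without MCT 330 replicate 1 or 2.

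Other cell types of the liver gave no call. Of 10 endothelial probes 6 were tested, with a median of -0.12. For miR-126a-3p, the miRNA of endothelial cells, the controls read 12.86, 13.28 and 13.06 and the MCT 330 arrays 12.21, 12.17 and 12.59. All treated arrays were below the controls, but the change of -0.74 ± 0.47 was within the spread of the fit (limma adjusted p = 0.408), to which MCT 270 replicate 1 at 11.12 contributed. Of 14 stellate and mesenchymal probes 9 were tested, with a median of -0.15 and 2 below all controls (17.3% of all tested probes were). Of 18 biliary and epithelial probes 8 were tested, with a median of -0.06. The general injury miRNA miR-21a-5p read 13.68, 13.91 and 13.28 against 13.28, 13.68 and 14.39, with overlap and a change of 0.16 ± 0.29 (limma adjusted p = 0.796).

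The miR-17-92 cluster and its paralogues, known from dividing cells, had 16 of 28 probes tested. None was called, and the median was 0.36. Above all controls lay 7 of the 16 (43.8%), against 9.39% of all tested probes, and below them 1 (6.25%), against 17.3%. The highest was miR-25-5p, from the miR-106b cluster in an intron of Mcm7, a helicase gene of DNA replication. Its controls read 8.03, 7.70 and 8.04 and the MCT 330 arrays 10.10, 9.80 and 8.12, so replicate 3 lay just above the controls. The change was 1.42 ± 0.43 (limma adjusted p = 0.0858), and 2.03 (0.00312) without MCT 330 replicate 3. Leaving out MCT 330 replicate 1 or 2 instead gave limma adjusted p-values of 0.264 and 0.274. The opposite arm, miR-25-3p, changed by 0.32 ± 0.22 (0.437). Across the 26 lists of cell types, functions and families, 24 had no called member, and medians ranged from -0.17 to 1.29.

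The mRNAs of genes that host miRNAs were read from the mRNA arrays as log2 signal minus the 75th percentile of each array, with no test because several of those arrays may be repeats of 1 sample. RefSeq places the miRNA inside the host for 32 host genes on the array, of which 18 were lower, 9 higher and 5 overlapping at 330 mg/kg. Over 20616 genes of the same arrays, read by the same rule, 47.2% were lower and 27.4% higher, so nothing is read from the count of hosts. The miR-126a host Egfl7, a gene of endothelial cells, read 2.36, 2.36 and 2.37 in the controls and 1.52, 1.54 and 1.55 on the MCT 330 arrays, below the controls on all arrays, as was miR-126a-3p. The other arm, miR-126a-5p, overlapped its controls, with a change of -0.22 ± 0.17 (limma adjusted p = 0.514). The miR-25 host Mcm7 read 1.47, 1.95 and 1.91 against 2.40, 2.31 and 2.33, above the controls on all arrays, as were miR-25-5p, miR-93-5p at 0.34 and miR-106b-5p at 0.37, none of them called. Of the other arms of that cluster, miR-93-3p at -0.50 lay below every control, and miR-106b-3p at 0.02 and miR-25-3p at 0.32 overlapped them. The miR-511 host Mrc1, the macrophage and sinusoidal mannose receptor, read 1.32, 1.23 and 1.24 against -1.66, -1.54 and -1.50. That difference of -2.83 had no counterpart in miR-511-3p at -0.20. The miR-107 host Pank1, a pantothenate kinase, differed by -2.51 and miR-107-3p by -0.12, so host message and mature miRNA did not change by like amounts in these cases.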

How the data were processed

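The deposited miRNA values were, per the file headers, foreground intensity, foreground minus background intensity, and a normalized ratio that the authors made from the latter, with replicate spots already combined; the scanner software is not given in the sources used here. Deposited mRNA intensities were background-subtracted processed signals. The miRNA values were corrected with normexp (offset 50), log2 transformed, quantile normalised and compared with limma 3.58.1 (lmFit, eBayes) in R 4.3.3 over 9 arrays, adjusted by Benjamini-Hochberg, threshold 0.05. The fit was tested on simulated data. A bound for a miRNA under 30 on all MCT 330 arrays sets the control mean against the higher of the limit and its own signal.

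Named were the 12 lowest and 12 highest called miRNAs (1 was called higher), up to 4 called members per list or else the 2 with the smallest p, called members of clusters, the 10 highest control signals, and host genes. Others (miR-144-3p, miR-207, miR-882 and the like) were named after their values were seen. Members and lists were chosen with earlier results of these data known. The replicate numbers did not pair the samples. Alternatives are given in the closing section.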

Additional observations from a re-analysis of the deposited data

Results flagged for a closer look

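Probes for viral miRNAs lay outside the main comparison. Of 56 such probes 14 were tested and none was called with the mouse probes. Only 1, mghv-miR-M1-3-3p of a mouse herpesvirus, was higher than every control on all MCT 330 arrays after normalisation. Its log2 fold change was 0.58 ± 0.27 and did not pass limma (adjusted p = 0.243 with the mouse probes). Before normalisation its foreground minus background read 37, 53 and 85.5 in the controls and 156, 98 and 72.5 on the MCT 330 arrays, which overlap. Lower than every control were 3 others, as were 17.3% of the tested mouse probes. These 3 were mghv-miR-M1-3-5p at -1.13 ± 0.35 (limma adjusted p = 0.0957 with the mouse probes), mghv-miR-M1-10-3p at -0.73 ± 0.23 (0.067) and mghv-miR-M1-4-5p at -0.33 ± 0.26 (0.492). Groups of 3 arrays were not searched for single outlying samples.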

How the results depend on the processing

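The direction of all 26 called miRNAs held under each of the 12 other settings and with each of the 9 arrays left out, wherever the miRNA was still tested, and 10 of the 26 passed in all of them. The count of calls was 40 with a normexp offset of 16, 13 when a signal of 30 was asked on all 9 arrays, which leaves out miRNAs that fell below it, and 12 when replicates 2 and 3 of each group were averaged into 1 sample. It was 39 with the authors' normalized ratio (36 lower, 3 higher), 29 with floored values, 26 with median centring, 25 with cyclic loess, 31 with no filter, 22 with a filter on the mean and 28 with the 6 arrays alone. With the replicate number as a block it was 18, all among the 26; the same-numbered control and MCT 330 arrays correlated at -0.22, 0.05 and -0.38 in their deviations, so the numbers did not pair the arrays. With 1 array left out it ranged from 12 to 76. Low signal also limits the comparison: 492 of 1122 mouse probes did not reach 30 on any array.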

Other observations

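The 2 highest log2 fold changes belonged to miRNAs outside any list, named after their values were seen. For miR-882 the controls read 7.46, 7.53 and 7.83 and the MCT 330 arrays 12.70, 9.09 and 7.87. For miR-2137 the controls read 8.84, 8.34 and 8.47 and the MCT 330 arrays 13.06, 10.50 and 8.57. In both the treated arrays spread over more than 4 log2 units, from replicate 1, the highest, to replicate 3, at the level of the controls. The changes of 2.28 ± 0.97 and 2.16 ± 0.87 did not pass (limma adjusted p = 0.198 and 0.174). Of the same kind were miR-3473b, at 11.09, 10.79 and 8.59 on the MCT 330 arrays with a highest control of 9.36, and miR-1947-3p, at 11.38, 10.46 and 9.16 with a highest control of 9.04. Without MCT 330 replicate 3 these 4 passed, at 3.29 for miR-882, 3.23 for miR-2137, 2.47 for miR-3473b and 2.06 for miR-1947-3p, with limma adjusted p-values of 0.0497, 0.0185, 0.0103 and 0.00698.

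The rodent-specific miR-466, miR-467 and miR-669 cluster lies in an intron of Sfmbt2. The list made for it by name also held miR-297 probes and miR-669n, which is encoded on chromosome 3. Of its 71 probes, 49 were tested. None was called, 8 (16.3%) lay above all controls, against 9.39% of all tested probes, 4 (8.16%) lay below, against 17.3%, and the median change was 0.14. The let-7 family had 16 of 20 probes tested, none called and a median of -0.07.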
